A study of Homo sapiens with 16 samples.

Results

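The genes described here are 195 zinc finger genes named ZNF with a number, in TPC1 and K1, a pair of established human papillary thyroid carcinoma cell lines (K1 derives from GLAG-66). They were selected on measured abundance: of 25369 gene symbols counted, 499 consisted of ZNF, a number and at most an A or B, *ZNF367* was set aside by name, and 195 of the remaining 498 had at least 5 CPM (reads scaled to a common library total) in each of the 16 libraries. Each line had been given 0.2% DMSO (vehicle), 10 µM nutlin-3a (nutlin, an MDM2 inhibitor), 25 µM GSK2830371 (a PPM1D inhibitor) or both drugs together (the combination) for 24 h, with 2 poly(A) RNA libraries per group. TPC1 had been grown in RPMI and K1 in DMEM, and both carry wild-type p53, so the lines differed in medium as well as in origin. The TPC1 libraries are called 1 and 3 and the K1 libraries 1 and 2, after the columns of the deposited table. The study describes its replicates in general as independently prepared biological replicates, and the sample labels do not say how the libraries of a group relate to each other, so p-values here measure the spread between these libraries.

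Most ZNF genes encode C2H2 proteins, in which each finger holds a zinc ion between a pair of cysteines and a pair of histidines and reads a few bases of DNA. Many also carry a KRAB domain, which recruits TRIM28 and through it SETDB1 and HP1 proteins to silence chromatin, often at transposable elements. The genes multiplied by tandem duplication, chiefly in clusters on chromosome 19. Nutlin frees p53 from MDM2, and PPM1D is a phosphatase that p53 itself induces and that turns the p53 response down.

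The coding sequence of a single finger is shown for 11 members, from the GRCh37 genome at the canonical transcripts of GENCODE, with the 4 codons of the zinc-binding cysteines and histidines in capitals. The first 3 belong to the members of lowest transcript GC content and the next 3 to those of highest, the property that set members apart in K1 under GSK2830371.
ZNF107 chr7:64166998-64167060 (+): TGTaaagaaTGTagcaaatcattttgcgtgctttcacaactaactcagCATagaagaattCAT
ZNF148 chr3:124997972-124998034 (-): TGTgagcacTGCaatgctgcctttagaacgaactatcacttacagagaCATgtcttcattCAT
ZNF260 chr19:37005994-37006056 (-): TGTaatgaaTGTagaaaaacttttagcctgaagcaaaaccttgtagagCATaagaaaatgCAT
ZNF787 chr19:56600277-56600339 (-): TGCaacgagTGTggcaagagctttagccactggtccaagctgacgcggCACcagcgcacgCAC
ZNF628 chr19:55992672-55992734 (+): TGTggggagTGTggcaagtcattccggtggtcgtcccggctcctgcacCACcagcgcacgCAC
ZNF865 chr19:56125660-56125722 (+): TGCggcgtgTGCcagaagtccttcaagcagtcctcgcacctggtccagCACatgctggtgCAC
The finger sequences of *ZNF107*, *ZNF148* and *ZNF260* were 33.3%, 41.3% and 31.7% G or C over 63 bases, and those of *ZNF787*, *ZNF628* and *ZNF865* 61.9%, 66.7% and 61.9%. Over whole transcripts the values ran from 34.6% to 35.9% in the first 3 and from 70.4% to 70.9% in the others. The next 3 fingers come from members that nutlin raised in both lines, and the last 2 from members that were lower under GSK2830371 in K1.
ZNF79 chr9:130206562-130206624 (+): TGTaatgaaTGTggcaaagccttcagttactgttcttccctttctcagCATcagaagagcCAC
ZNF337 chr20:25657234-25657296 (-): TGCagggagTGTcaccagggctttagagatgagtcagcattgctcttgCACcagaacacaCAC
ZNF219 chr14:21561219-21561281 (-): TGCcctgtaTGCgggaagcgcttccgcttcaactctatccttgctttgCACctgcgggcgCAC
ZNF507 chr19:32844115-32844177 (+): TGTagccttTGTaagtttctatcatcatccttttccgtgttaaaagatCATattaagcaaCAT
ZNF644 chr1:91405615-91405677 (-): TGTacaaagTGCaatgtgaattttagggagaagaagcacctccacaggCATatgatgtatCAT
The spacing of cysteines and histidines was a condition of the search for fingers. In this second set the share of G or C over all 63 bases ran from 31.7% in the *ZNF507* finger to 60.3% in that of *ZNF219*.

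Library totals were 30789887 to 76648552 counts in TPC1 and 28888686 to 37161241 in K1. The TPC1 libraries numbered 3 were the deepest, at 62853375 or more, and those numbered 1 held at most 36896529. The thyroid factor *PAX8* was at 280 to 451 CPM in TPC1 and 749 to 841 in K1, whereas *TG* reached 4.99 and 6.18 and *TSHR*, *SLC5A5* and *NKX2-1* stayed under 1 CPM. The leukocyte gene *PTPRC* was at 0 to 0.0628 CPM. *CDKN1A*, a p53 target, went from 128 and 150 CPM under DMSO to 6569 and 6689 under nutlin in TPC1, and from 110 and 118 to 978 and 1046 in K1.

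The members were modestly abundant. Their counts summed to 4844 to 5951 CPM per library, and the lowest count of any member in any library was 154 reads. The median of the members' mean CPM over the 16 libraries was 19.4, against 47.5 for the 9132 genes of the table that met the same floor. The highest means were those of *ZNF207* (BuGZ, a spindle protein that binds BUB3) at 189 CPM, *ZNF609* at 112 and *ZNF106* at 112, which per kilobase of transcript were 13.8, 12.4 and 10.7 CPM. Median CPM under DMSO was 16.7 in TPC1 and 17.9 in K1. At the floor, the lowest of 16 values was 5.04 CPM in *ZNF552*, 5.08 in *ZNF33B* and 5.09 in *ZNF619*, just inside, and 4.99 in *ZNF226*, 4.91 in *ZNF805* and 4.87 in *ZNF548*, just outside. Of the 303 symbols below the floor in some library, 64 had a mean of at least 5 CPM, 38 met the floor in all K1 libraries but not in TPC1, 16 met it in TPC1 but not in K1, and 17 had no count at all.

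In structure the members were a mixed family. Among 192 with a translated coding sequence, 187 held at least 1 C2H2 pattern (C, 2 to 4 residues, C, 12 residues, H, 3 to 5 residues, H) and 5 held none, with a median of 9 patterns and at most 36 in *ZNF142*. A KRAB A-box pattern was found in 71 and not in 121, a count that misses domains written differently. Chromosome 19 held 54 members, 27.7% of them, against 6.08% of the genes at the floor, and 27 of the 71 KRAB members lay there. The other chromosomes with the most members were chromosome 16 with 20 and chromosome 7 with 15. Transcript GC content ran from 34.6% to 70.9% with a median of 47.1%, close to the 47.8% of the genes at the floor, and was lower in KRAB members (44.2%) than in the rest (51.5%). *ZNF33A* and *ZNF33B*, and *ZNF587* and *ZNF587B*, are near-identical copies, so the split of reads within each pair is uncertain.

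In TPC1 nutlin raised more members than it lowered, and the raised share past 1.5-fold was close to that of all genes. In edgeR's quasi-likelihood test, with p-values adjusted over all genes tested by the Benjamini-Hochberg method, 32 members (16.4%) were raised and 11 (5.64%) lowered at adjusted p under 0.05 and more than 1.5-fold, the call used below unless another is named. The same call covered 17.5% of the 15273 genes tested in the raised direction and 18.0% in the lowered direction. At adjusted p under 0.05 and any size, 65 members (33.3%) were raised and 33 (16.9%) lowered, against 27.3% and 28.3% of all genes tested. Among the 9132 genes at the floor, 14.8% were raised and 17.8% lowered by the call with the fold. The median log2 fold change of the members was 0.10, with 116 of 195 above 0, against 0.00 over all genes tested and -0.03 over the genes at the floor. The floor of 5 CPM in every library keeps out low genes that fell under any treatment, so the short lowered side is in part fixed by how the members were chosen. Among 62 tested ZNF genes that met 5 CPM only as a mean, 18 were raised and 12 lowered. Without nutlin 3 the any-size lowered count was 21.

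**Figure D1:**
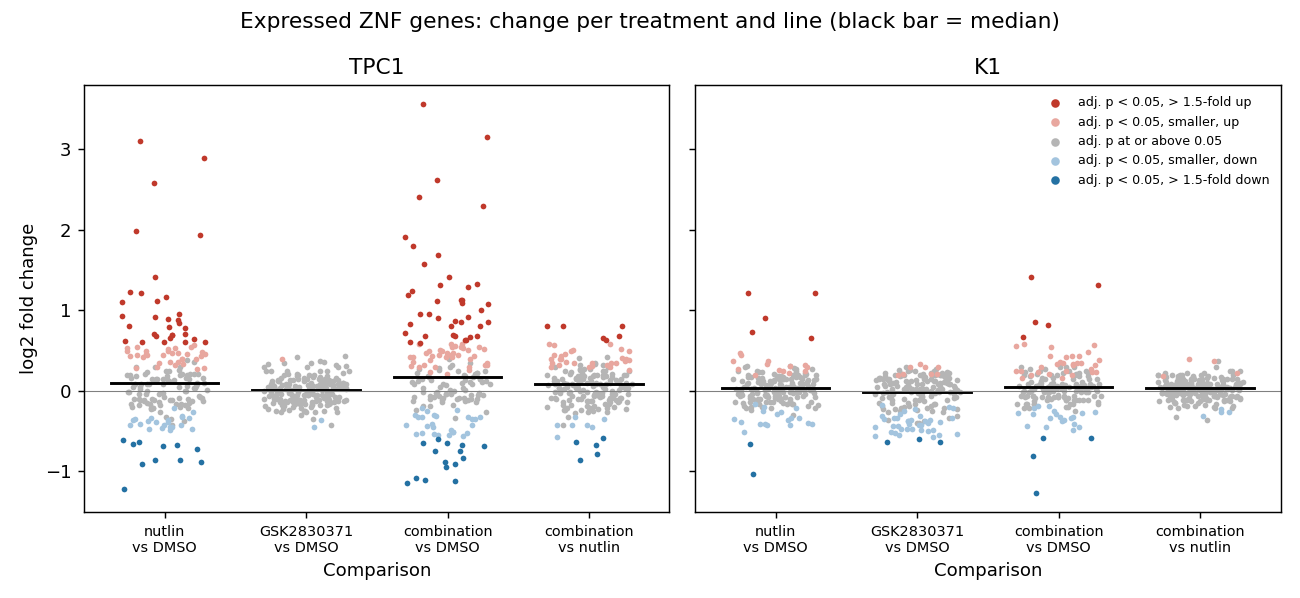
Log2 fold change (y axis) of each of the 195 ZNF genes (points) in 4 comparisons per line (x axis), colored by call, with the median as a black bar. TPC1 spread widely under nutlin and the combination, with medians of 0.10 and 0.17, whereas the GSK2830371 points of both lines lay close to 0 apart from a lowered tail in K1.

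The members raised most by nutlin in TPC1 were *ZNF385A*, *ZNF79*, *ZNF219*, *ZNF337* and *ZNF561*. *ZNF385A* (HZF), which encodes an RNA- and p53-binding zinc finger protein and is itself a p53 target, lies at chr12:54762917-54785082 on GRCh37, and its CPM was 21.5 and 23.2 under DMSO and 192 and 184 under nutlin. Its log2 fold change was 3.10 ± 0.0821 (SE from the fit of all TPC1 libraries, n = 2 libraries per group, adjusted p = 8.84e-09). *ZNF79* (chr9:130186653-130207651) went from 8.1 and 7.44 to 56.4 and 56.2 CPM, a log2 fold change of 2.89 ± 0.0817 (adjusted p = 1.17e-08). For *ZNF219* (chr14:21558236-21572881), a partner of SOX9 in cartilage, CPM was 16.8 and 18.3 under DMSO and 105 and 102 under nutlin. In these 3 members the groups lay far apart and the replicates close together. *ZNF337* (chr20:25653831-25677489), a KRAB member with 19 finger patterns, went from 12.1 and 12.5 to 47.5 and 47.5 CPM. *ZNF561* (chr19:9715356-9731912), also KRAB, went from 15.6 and 15.4 to 57.4 and 58.4. The log2 fold changes of these last 3 were 2.58 ± 0.0947, 1.98 ± 0.0801 and 1.93 ± 0.0949, with adjusted p of 4.38e-08, 8.4e-08 and 3.07e-07. *ZNF654* was raised too, from 9.92 and 8.82 to 21 and 21.3 CPM.

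Among the lowered members, *ZNF511* had the largest fall in TPC1 under nutlin, from 50.8 and 61.9 to 21.6 and 25.6 CPM (log2 fold change -1.22 ± 0.13, adjusted p = 4.42e-05). *ZNF107* (chr7:64126477-64171955), a KRAB member, went from 15.8 and 14 to 8.12 and 7.42 CPM. *ZNF639* (ZASC1, in a region amplified in squamous carcinomas) went from 34.9 and 35 to 18.8 and 18.3. *ZNF146* (OZF), a protein made of little but fingers, went from 84 and 84.2 to 42.4 and 48. For *ZNF267* the values were 11.2 and 10 under DMSO and 5.42 and 5.97 under nutlin, close to the floor. In each of these the nutlin libraries lay below both DMSO libraries, which was a condition for naming them. The log2 fold changes of *ZNF107*, *ZNF639*, *ZNF146* and *ZNF267* were -0.91 ± 0.142, -0.88 ± 0.0874, -0.86 ± 0.0985 and -0.86 ± 0.116. Their adjusted p lay between 2.85e-05 and 0.000538. *ZNF473* (ZFP100), a U7 snRNP partner in histone pre-mRNA processing, was lowered from 14.3 and 14.7 to 9.06 and 9.08 CPM.

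In K1 nutlin raised *ZNF79*, *ZNF337* and *ZNF219* again, and fewer members were called. Raised members numbered 5 (2.56%) and lowered members 2 (1.03%), against 3.84% and 5.43% of the 15900 genes tested. At any size 19 (9.74%) were raised and 20 (10.3%) lowered, against 13.5% and 16.6%. Both counts fell when any 1 DMSO or nutlin library was left out, which leaves 1 library in that group. Such fits cannot tell lost power from reliance on a particular library. With DESeq2 11 were raised. The median log2 fold change was 0.03, with 111 of 195 above 0, and the span from the 10th to the 90th percentile was -0.22 to 0.26, against -0.42 to 0.75 in TPC1. The 5 raised members were *ZNF79*, *ZNF337*, *ZNF219*, *ZNF654* and *ZNF561*, and the 2 lowered members *ZNF107* and *ZNF473*. All 7 carried the same call in TPC1, where they made up 15.6% of the 32 raised and 18.2% of the 11 lowered members. How often other genes called in K1 carried the same call in TPC1 was not counted.

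*ZNF79* went from 13.5 and 13.8 to 32 and 30.8 CPM in K1 (log2 fold change 1.22 ± 0.0709, adjusted p = 2.71e-08). *ZNF337* went from 22.1 and 21.6 to 54.7 and 45.8 (1.21 ± 0.0788, adjusted p = 7.82e-08), and *ZNF219* from 20.6 and 18.2 to 35 and 37 (0.91 ± 0.0764). *ZNF107* went from 22.1 and 24.7 to 11.5 and 11.1 CPM (-1.04 ± 0.0947, adjusted p = 2.01e-06) and *ZNF473* from 22.6 and 23.1 to 14.7 and 14 (-0.66 ± 0.0738). No DMSO library overlapped a nutlin library in these 5, which was a condition for naming them. *ZNF385A*, the member raised most in TPC1, was at 25 and 19.2 CPM under DMSO and 24.2 and 24.9 under nutlin in K1 (0.17 ± 0.116, adjusted p = 0.314). Among the 64 ZNF genes with only a mean at the floor, nutlin raised 0 and lowered 8 in K1. They include *ZNF92*, at 14.2 and 13.3 CPM under DMSO and 6.89 and 5.94 under nutlin, and *ZNF714*, at 35.6 and 34 and then 17.1 and 18.6, both named after their values were seen. *ZNF367*, which the selection leaves out by name, went from 15.9 and 18.7 to 1.45 and 1.07 CPM in K1 and from 48 and 40 to 0.844 and 0.829 in TPC1. *ZNF100* was present in K1 alone, at 6.48 and 7.45 CPM under DMSO and 1.97 and 2.32 under nutlin, and at no more than 0.0633 in TPC1.

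**Figure D2:**
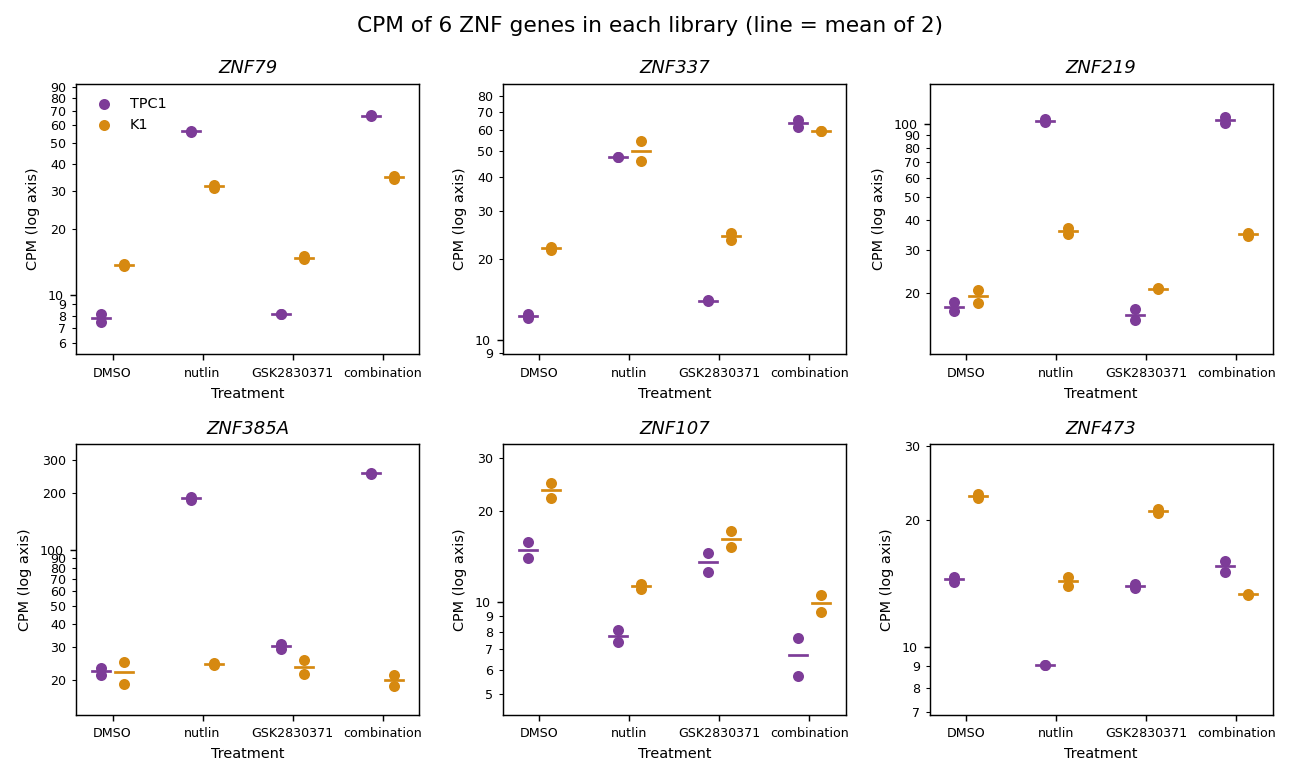
CPM on a log axis (y) of 6 ZNF genes under each treatment (x) in TPC1 and K1, 1 point per library, with a line at the mean of 2. *ZNF79*, *ZNF337* and *ZNF219* were higher with nutlin in both lines, *ZNF385A* in TPC1 and not in K1, and *ZNF107* was lower in both lines.

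The difference between the lines was tested for each member as K1 minus TPC1 in a fit of all 16 libraries. For nutlin the effect was higher in K1 for 3 members and lower for 25 (12.8%), against 8.73% and 10.5% of the 16738 genes tested, and the median difference of the members was -0.13. *ZNF385A*, *ZNF79* and *ZNF219* differed most downward, by -2.97 ± 0.156 (adjusted p = 1.26e-09), -1.71 ± 0.104 and -1.71 ± 0.13 on the log2 scale. The 3 upward differences belonged to *ZNF511* (1.04 ± 0.171, adjusted p = 0.0002), *ZNF587B* (0.86 ± 0.157) and *ZNF146* (0.68 ± 0.135), members that fell in TPC1. In K1 under nutlin *ZNF511* was at 15.1 and 14.5 CPM against 15.8 and 17.1 under DMSO, and *ZNF146* at 74.8 and 63.2 against 74.9 and 78.4, with neither passing the test. The count of 3 was 5 without K1 DMSO 1 or without K1 nutlin 2. For the combination the counts were 8 higher in K1 and 36 lower (18.5%), against 11.9% and 13.8%.

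Beside 27.3% of all genes raised and 28.3% lowered at any size in TPC1, and 13.5% and 16.6% in K1, members were counted by protein class. The KRAB members of TPC1 had a nutlin median of 0.21 with 29 of 71 raised and 10 lowered at any size, and the members without the KRAB pattern a median of 0.02 with 35 of 121 raised and 23 lowered. In K1 the medians were 0.09 and -0.01, with 10 raised and 4 lowered among KRAB members and 9 and 16 among the rest. Members on chromosome 19 had a TPC1 nutlin median of 0.18, with 18 of 54 raised and 9 lowered, and those elsewhere had 47 of 141 raised and 24 lowered. Members with 10 or more finger patterns had a TPC1 median of 0.18, and those with 1 to 9 a median of 0.01. The differences between these classes were not tested, and the classes overlap. Among 45 zinc finger genes of other names at the same floor (ZBTB, ZSCAN, ZKSCAN and ZFP), nutlin raised 13 and lowered 2 in TPC1, with a median of 0.24, and raised 1 and lowered 0 in K1. Of all genes tested, 17.5% were raised and 18.0% lowered by this call in TPC1, and 3.84% and 5.43% in K1. The Z4 complex member *ZNF687* was raised in TPC1, from 58.2 and 52.3 to 99.1 and 94.4 CPM, as was *ZNF91*, a KRAB repressor of SVA transposons, from 5.91 and 5.31 to 9.84 and 9.09.

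Partners through which KRAB proteins act were counted beside the members. Of a list of 16 corepressor genes (TRIM28, SETDB1, HP1, NuRD, HUSH and DNA methylation genes), nutlin lowered 8 and raised 0 in TPC1, with a median log2 fold change of -0.52, and lowered 3 and raised 0 in K1, with a median of -0.34. The 8 were 50% of the list, beside 18.0% of all genes tested in TPC1, and the 3 were 18.8%, beside 5.43% in K1, and the list itself was not tested. *TRIM28* itself went from 623 and 623 to 324 and 316 CPM in TPC1 (-0.93 ± 0.0761, adjusted p = 8.24e-06) and from 518 and 534 to 389 and 382 in K1 (-0.44 ± 0.0551, adjusted p = 4.01e-05, under the 1.5-fold limit). *SETDB1*, the histone methyltransferase of the complex, did not pass the test in either line. *UHRF1*, which guides DNA methylation to replicating DNA, had the largest fall of the list, -3.83 ± 0.0912 in TPC1 and -2.15 ± 0.0728 in K1. *DNMT1* was at -2.12 and -1.20 and *CBX5* (HP1α) at -1.25 and -0.69. In TPC1 the others lowered were *CBX1*, *CBX3*, *CHD4* and *HDAC2*. In bulk RNA, fewer cells that express a gene and less RNA per cell cannot be told apart.

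In TPC1, GSK2830371 alone gave few calls among the members in the fit without a replicate block. None was raised or lowered by more than 1.5-fold, against 0.720% and 0.681% of all genes tested, with edgeR and also with DESeq2. Without adjustment, 15 of 195 members had a raised and 14 a lowered value at p under 0.05. The share of all genes at that unadjusted level was not counted, so these 2 counts have no baseline. At any size and after adjustment 1 member was raised and 2 lowered, against 1.87% and 1.64%, and the median was 0.01. The raised member was *ZNF385A*, at 21.5 and 23.2 CPM under DMSO and 31.3 and 29.4 under GSK2830371 (0.39 ± 0.0783, adjusted p = 0.0357). The lowered members were *ZNF703*, a breast cancer oncogene, from 64.2 and 64.9 to 48.7 and 49.3 CPM (-0.45 ± 0.087, adjusted p = 0.0313), and *ZNF444*, from 25.4 and 27.8 to 20.9 and 22 (-0.36 ± 0.0818, adjusted p = 0.0483). TPC1 libraries of the same number deviated together (r of 0.39 to 0.57 over 6 pairs of treatments). With the replicate number as a block, 18 members were raised and 11 lowered at any size, and still none past 1.5-fold. The share of all genes called with the block was not counted, so these counts have no baseline. Without the block the 3 calls were gone when TPC1 DMSO 1, DMSO 3, GSK2830371 1, GSK2830371 3, nutlin 1 or nutlin 3 was left out.

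In K1, many members were lower by a small amount in the libraries given GSK2830371 alone. At any size 41 members (21%) were lowered and 8 (4.1%) raised, against 10.8% and 8.40% of all genes tested and 15.6% and 12.2% of the genes at the floor. By more than 1.5-fold 3 were lowered and 0 raised, against 1.49% and 0.736%, and DESeq2 gave 4 and 0. Without adjustment, 57 were lowered and 31 raised at p under 0.05, a level at which the share of all genes was not counted. The median log2 fold change of all members was -0.01 and 95 of 195 lay above 0, with a longer tail on the lowered side, the 10th percentile at -0.42 and the 90th at 0.21.

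The 3 members past 1.5-fold were *ZNF507*, *ZNF644* and *ZNF148*, whose fingers are shown above. *ZNF507* (chr19:32836500-32878573) was at 40.8 and 41.4 CPM under DMSO and 24.2 and 28.3 under GSK2830371 (-0.64 ± 0.0865, adjusted p = 0.000587). *ZNF644* (chr1:91380855-91487829), which with WIZ ties the methyltransferases G9a and GLP to chromatin, went from 55.2 and 56.5 to 33.9 and 37.7 (-0.64 ± 0.0944, adjusted p = 0.00082). *ZNF148* (ZBP-89, chr3:124944513-125094169), a factor that binds GC-rich promoters, went from 91 and 88.9 to 53.2 and 65.1 (-0.60 ± 0.0841, adjusted p = 0.000654). In all 3, GSK2830371 library 1 lay below library 2. Both lay below DMSO, which was a condition for naming them. *ZNF267* went from 15.9 and 16 to 9.65 and 11.7 CPM, *ZNF721* from 18.2 and 20 to 13.1 and 12.7, and *ZNF638* (NP220, a silencer of unintegrated retroviral DNA) from 108 and 102 to 68.9 and 77.6. The largest increases were those of *ZNF503*, from 72.2 and 73.1 to 93 and 88.9 CPM (0.33 ± 0.0576, adjusted p = 0.00187), *ZNF250* (0.30 ± 0.0947), *ZNF672* (0.29 ± 0.0932) and *ZNF703*, a paralog of *ZNF503* (0.29 ± 0.0755). The last 3 had adjusted p of 0.0412, 0.0448 and 0.0168. The count past 1.5-fold depended on single libraries, being 1 without GSK2830371 1, 11 without GSK2830371 2 and 5 without DMSO 1 or DMSO 2. At any size 19 members were lowered without GSK2830371 1, 20 without DMSO 1, 26 without DMSO 2 and at most 43. Raised members numbered 1 without DMSO 1, 3 without DMSO 2, 2 without GSK2830371 1, 3 without combination 1 and 4 without combination 2, and DESeq2 gave 2 raised and 35 lowered.

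These changes ran with base composition. In K1 the log2 fold change under GSK2830371 and transcript GC content had a Pearson r of 0.74 across the 195 members, and of 0.62 across the other genes at the floor. This is a correlation across genes of the same 4 libraries, and genes are not independent replicates. The members were split by GC content into 5 bins of 39. Their medians were -0.40 at 34.6% to 40.3% GC, -0.19 at 40.3% to 44.4%, 0.02 at 44.4% to 51.6%, 0.15 at 51.6% to 59.8% and 0.12 at 59.8% to 70.9%. Lowered members numbered 27, 12, 1, 1 and 0 in that order, and raised members 0, 0, 1, 3 and 4. All 39 members of the lowest bin had a log2 fold change below 0, against 4 of the highest.

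The other genes at the floor followed the same course in the same bins, with medians of -0.26, -0.09, 0.04, 0.10 and 0.13, and 53.6% of them lowered in the lowest bin against 0.701% in the highest. The 41 lowered members had a median GC content of 39.5%, within 34.6% to 51.9%, and the 8 raised members a median of 59.9%. *ZNF107*, with the lowest GC content, was at 22.1 and 24.7 CPM under DMSO and 17.2 and 15.2 under GSK2830371. *ZNF260*, the third lowest, was at 16.7 and 14.7 and then 10.1 and 12.9. *ZNF865*, with the highest GC content, was at 27.2 and 25.8 and then 28.6 and 26.1, and *ZNF628* at 13.1 and 12.6 and then 12.5 and 12.8. The 2 low-GC members lay below their DMSO values and the 2 high-GC members overlapped theirs.

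**Figure D3:**
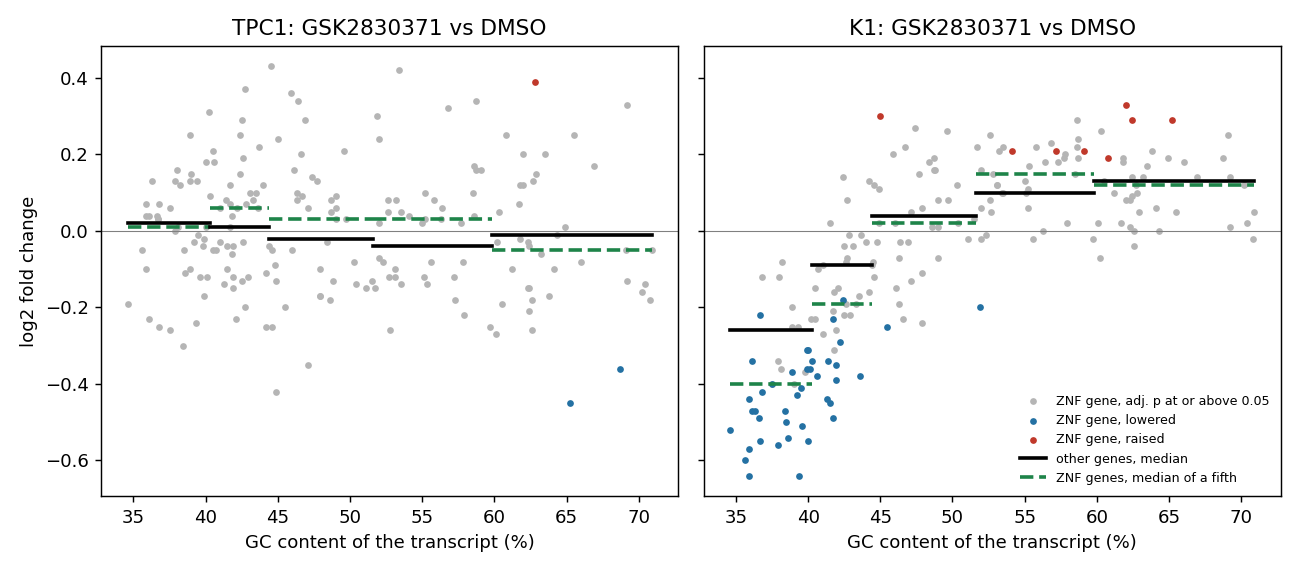
Log2 fold change under GSK2830371 (y axis) against transcript GC content in percent (x axis) for the 195 ZNF genes, with the median of ZNF genes (dashed green) and of other genes at the floor (black) in each of 5 bins. In K1 both medians rose from the lowest bin (-0.40 and -0.26) to the highest (0.12 and 0.13), and in TPC1 the ZNF medians stayed between -0.05 and 0.06.

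The K1 GSK2830371 libraries stood apart in their trend with GC content. Relative to the mean DMSO value of the line, the slope across members was 0.22 on the log2 scale per 10 points of GC content in K1 GSK2830371 1 and 0.14 in GSK2830371 2, and across other genes 0.19 and 0.12. In the other 14 libraries the member slope ran from -0.04 to 0.10. The DMSO libraries among them were set against a mean that includes them, so the slopes of each DMSO pair mirror each other. The 39 members of lowest GC content had a median of -0.50 and -0.33 in the 2 K1 GSK2830371 libraries and of -0.18 to 0.16 in the rest. The TPC1 libraries with the same drug had member slopes of -0.04 and 0.01, and the TPC1 correlation across members was -0.07. The K1 combination libraries, which had also been given GSK2830371, had slopes of 0.02 and -0.02. Against DMSO their median was 0.00 in the lowest bin and r was -0.01. Against nutlin alone r was -0.28 across members and -0.11 across the other genes at the floor. The member medians there were 0.03 in the lowest bin and -0.04 in the highest. In the K1 combination *ZNF507* was at 32.8 and 36.5 CPM, *ZNF644* at 46.2 and 52.1 and *ZNF148* at 70 and 76, between their GSK2830371 and DMSO values. *ZNF260* was at 14.8 and 15.5 there, within the span of its DMSO values. Nutlin alone also lowered *ZNF507* and *ZNF148* in K1 at adjusted p under 0.05, so for them the combination is no measure of GSK2830371 alone.

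**Figure D4:**
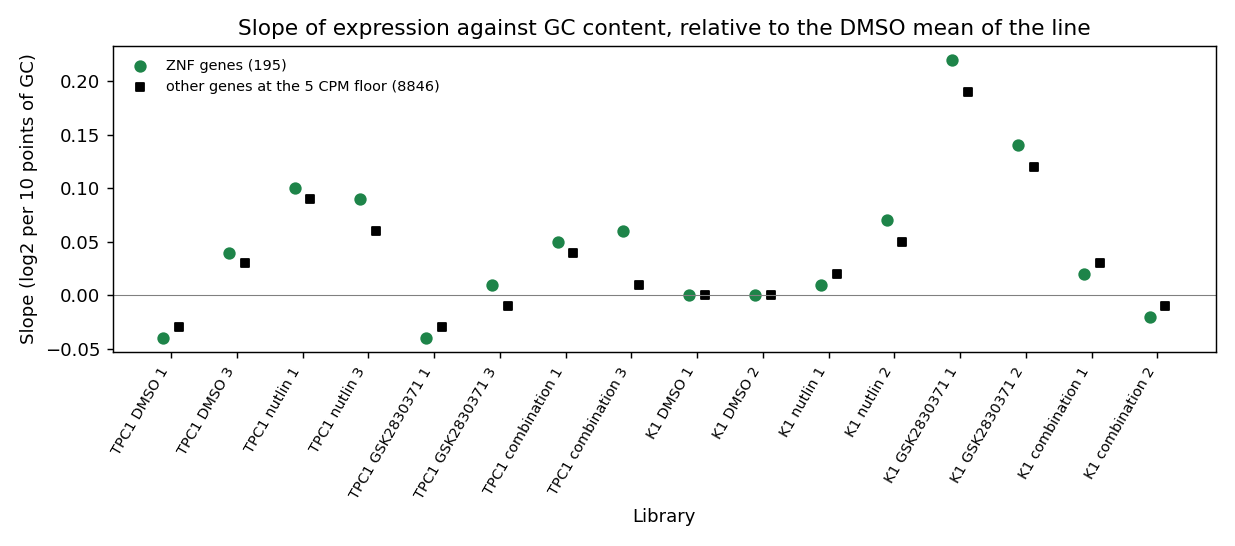
Slope of log2 expression, relative to the mean DMSO value of the line, against GC content (y axis, per 10 points) in each of the 16 libraries (x axis), for ZNF genes (green circles) and other genes at the floor (black squares). K1 GSK2830371 1 and 2 stood apart at 0.22 and 0.14 for ZNF genes, and the remaining libraries lay between -0.04 and 0.10. Each DMSO library is part of the mean it is set against.

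Giving each library an offset for its own dependence on GC content and transcript length took away most of the falls. Lowered members at any size numbered 8 instead of 41, and raised members 9 instead of 8 with 3 in common (*ZNF142*, *ZNF250* and *ZNF503*). None passed 1.5-fold. The share of all genes called with the offset was not counted, so these counts have no baseline. The median of the 41 went from -0.42 to -0.18, and the medians of the 5 bins became -0.11, -0.06, 0.04, 0.08 and -0.01. The correlation across members became 0.19. The 8 members still lowered were *ZNF148*, *ZNF302*, *ZNF322*, *ZNF507*, *ZNF532*, *ZNF638*, *ZNF644* and *ZNF697*, all among the 41. *ZNF507* had the largest remaining fall, -0.36 (adjusted p = 0.00306), followed by *ZNF322* at -0.34 (adjusted p = 0.00954) and *ZNF302* at -0.30 (adjusted p = 0.0314). *ZNF148* went from -0.60 to -0.17 and *ZNF644* from -0.64 to -0.26. *ZNF107* went from -0.52 to -0.09 (adjusted p = 0.655). Such an offset also removes any response to the drug that runs with GC content, so a drug effect on low-GC transcripts and a composition effect in the making of these libraries cannot be told apart here.

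**Figure D5:**
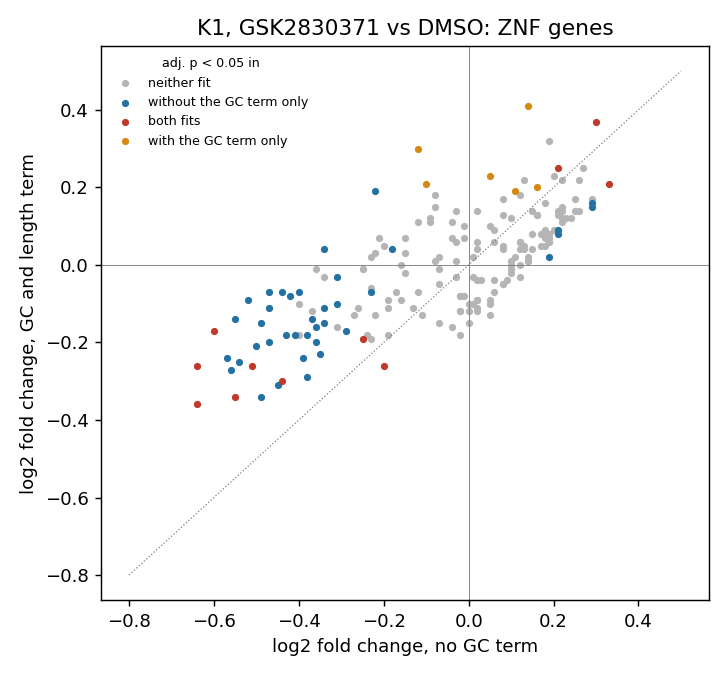
Log2 fold change of the 195 ZNF genes under GSK2830371 in K1 without (x axis) and with (y axis) an offset for GC content and length, colored by which fit gave an adjusted p under 0.05, with the line of equal values dotted. Lowered members moved up toward 0 with the offset, and 8 of 41 stayed below the threshold.

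Tested between the lines, the GSK2830371 effect was higher in K1 for *ZNF703* alone and lower for 4 members, *ZNF507*, *ZNF322*, *ZNF267* and *ZNF770*, against 0.597% and 1.58% of all genes tested. *ZNF703* went down in TPC1, as given above, and in K1 from 22.5 and 21.3 to 27.2 and 26.1 CPM, a difference of 0.74 ± 0.12 (adjusted p = 0.00587). *ZNF444* differed by 0.56 ± 0.122 (adjusted p = 0.0232), under the fold limit. *ZNF507* differed by -0.77 ± 0.16 (adjusted p = 0.0185), with TPC1 at 28.1 and 21.4 CPM under DMSO and 30.4 and 25.7 under GSK2830371. *ZNF322* differed by -0.73 ± 0.134 (adjusted p = 0.0119) and *ZNF267* by -0.61 ± 0.168 (adjusted p = 0.0497). With the GC offset none of the 4 lowered differences passed 1.5-fold, *ZNF507* remaining at -0.43 (adjusted p = 0.0147) and *ZNF267* at -0.26 (adjusted p = 0.292). The count of 4 was 0 without K1 DMSO 1, K1 GSK2830371 1 or TPC1 GSK2830371 1, 1 without K1 DMSO 2 or TPC1 DMSO 3, 2 without TPC1 GSK2830371 3, 8 without K1 GSK2830371 2 and 14 without TPC1 DMSO 1. The count of 1 in the other direction was 2 without K1 GSK2830371 2, TPC1 DMSO 1 or TPC1 GSK2830371 3.

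In TPC1 the combination raised *ZNF385A*, *ZNF79* and *ZNF219* most and lowered *ZNF511*, *ZNF608* and *ZNF107* most. Against DMSO 41 members (21%) were raised and 15 (7.69%) lowered, against 22.5% and 21.7% of all genes tested, and at any size 80 (41%) and 42 (21.5%), against 32.0% and 32.1%. The median was 0.17, against -0.05 over the genes at the floor. The same DMSO libraries served the nutlin, GSK2830371 and combination comparisons, so these counts are not independent of each other. The 5 members raised most by nutlin were again the 5 raised most, with *ZNF385A* at 256 and 254 CPM (3.56 ± 0.0835), *ZNF79* at 65.9 and 66.9 (3.15 ± 0.0822), *ZNF219* at 101 and 107, *ZNF337* at 61.4 and 65.3 and *ZNF561* at 68.2 and 78.9. *ZNF511* (23.4 and 25.6 CPM, -1.15 ± 0.129), *ZNF608* (6.7 and 7.99 against 17.3 and 16.1 under DMSO), *ZNF107* (7.65 and 5.73) and *ZNF395* (23.7 and 23.2 against 53.7 and 50.2) fell most. *ZNF207*, the most abundant member, went from 204 and 225 to 106 and 118 CPM (-0.88 ± 0.0928, adjusted p = 2.95e-05). Without DMSO 3 the lowered count was 23. Of the corepressor list 9 genes were lowered and 0 raised, with a median of -0.79, and of the 45 other zinc finger genes 14 were raised and 4 lowered, with a median of 0.43.

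Set against nutlin alone, the combination raised 6 members and lowered 5 in TPC1, against 6.46% and 5.66% of all genes tested. At any size 36 (18.5%) were raised and 12 (6.15%) lowered, against 13.2% and 12.9%, with a median of 0.08. *ZNF195*, *ZNF202* and *ZNF473* were raised by the same 0.80. *ZNF195* went from 27.2 and 30.7 CPM under nutlin to 44.9 and 54.8 (adjusted p = 0.00129), and *ZNF202*, a repressor of lipid metabolism genes, from 14.4 and 15.4 to 27 and 24.3 (adjusted p = 0.000301). *ZNF473* went from 9.06 and 9.08 to 16 and 15.1 (adjusted p = 0.000305), which is back at its DMSO values of 14.3 and 14.7. *ZNF618* was lowered from 79.5 and 63.1 to 45.4 and 32.6 CPM (-0.86 ± 0.194, adjusted p = 0.0118), *ZNF703* from 59.7 and 57.1 to 31.1 and 35.2 (-0.79 ± 0.0881, adjusted p = 0.000376) and *ZNF608* from 12 and 11.9 to 6.7 and 7.99 (-0.67 ± 0.13). *ZNF385A* and *ZNF79* were raised further, by 0.46 ± 0.0748 and 0.26 ± 0.0732. The lowered count was 3 without nutlin 1. The any-size raised count was 14 without nutlin 1, 11 without nutlin 3 and 23 without combination 3. With the replicate block 57 were raised and 24 lowered at any size, and the share of all genes with the block was not counted.

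In K1 the combination raised 5 members (2.56%) and lowered 4 (2.05%) against DMSO, against 7.62% and 8.09% of all genes tested, and with library totals in place of TMM scaling the split was 8 and 2. At any size 36 (18.5%) were raised and 24 (12.3%) lowered, against 21.0% and 22.2%, with a median of 0.05. The raised members were *ZNF337* (59.3 and 59.4 CPM, 1.41 ± 0.0783), *ZNF79* (35.2 and 34.1, 1.31 ± 0.0704), *ZNF654* (32.1 and 33.8, 0.85 ± 0.0939), *ZNF219* (34.5 and 35.5, 0.82 ± 0.0763) and *ZNF37A* (59.2 and 65.6 against 38.9 and 38.1 under DMSO, 0.67 ± 0.0754). All 5 were also raised in TPC1, 12.2% of the 41 there, and the same share over all genes was not counted. Lowered were *ZNF107* (9.29 and 10.6 CPM, -1.27 ± 0.0957), *ZNF473* (13.4 and 13.3, -0.81 ± 0.0741), *ZNF200* (-0.59 ± 0.0984) and *ZNF689* (-0.59 ± 0.0763), and of these only *ZNF107* was among the 15 lowered in TPC1. The raised count was 8 without combination 1 and the lowered count 2 without combination 2. At any size the raised count was 21 without DMSO 1, 20 without combination 1, 21 without combination 2 and 22 with DESeq2, and the lowered count 12 without combination 1. Of the corepressor list 5 were lowered and 0 raised, with a median of -0.41.

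Against nutlin alone the K1 combination raised 0 and lowered 0 members past 1.5-fold, against 1.16% and 1.52% of all genes tested, with edgeR and with DESeq2. At an unadjusted p under 0.05, 14 were raised and 13 lowered at any size, and the share of all genes at that level was not counted. After adjustment 4 were raised and 4 lowered, against 5.89% and 6.53%, with DESeq2 giving 1 and 1, and the median was 0.03. None was raised without nutlin 2, combination 1 or combination 2, 2 without DMSO 1 or DMSO 2, none was lowered without nutlin 1, nutlin 2 or combination 2, and 1 without combination 1. The largest increases were those of *ZNF362* (10.1 and 11.8 CPM under nutlin, 13.6 and 16.1 under the combination, 0.39 ± 0.117, adjusted p = 0.0444) and *ZNF23* (0.37 ± 0.109), and the largest decrease that of *ZNF710* (39 and 36.6 CPM, then 33.7 and 28.8, -0.31 ± 0.0807, adjusted p = 0.0221). *ZNF473*, raised in TPC1 by adding GSK2830371 to nutlin, was at 14.7 and 14 CPM under nutlin and 13.4 and 13.3 under the combination in K1.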

How the data were processed

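Gene counts of 16 libraries were analysed. The deposited values are raw read counts per gene symbol: the authors sequenced stranded poly(A) RNA, aligned reads with TopHat2 2.0.13 (submitters' notes also list Bowtie2 2.2.3.0, SAMtools 1.3.1 and Picard 1.129) to GRCh37 and counted them with HTSeq 0.6.1. The authors removed alignments of low mapping quality, which can lower the counts of near-identical ZNF copies. CPM is the count divided by its column sum, times 1000000. The 4 TPC1 columns named rep3 were assigned to their treatment only.

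From the counts, genes above 0.1 CPM in at least 2 libraries were fitted per line with edgeR 4.0.16 (quasi-likelihood F test, TMM, 1 coefficient per treatment, Benjamini-Hochberg) in R 4.3.3, which left 4 residual degrees of freedom, and line differences in a fit of all 16 libraries with 8. The common dispersions were 0.00828 (TPC1) and 0.00273 (K1). Each SE is the absolute log2 fold change divided by the square root of its F statistic. It thus draws on all libraries of the fit and not only on the groups compared. DESeq2 1.42.0 was an alternative. GC content and length are those of GENCODE canonical transcripts on GRCh37, found for 22702 of 25369 symbols (89.5%) and for all 195 members. The GC offset is a loess trend (span 0.4) of each library on GC content and length. The fits were run on simulated counts with known changes, drawn independently for each library. Deviations shared by libraries of the same number, as seen in TPC1, were not part of that simulation.

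The members, the gene lists and the tests were chosen with earlier results of these data known. Genes named are the 5 largest called changes each way per line and treatment among libraries that do not overlap, the 3 largest for the combination against nutlin and for line differences, those highest in CPM and at the ends of GC content, those next to the floor, the excluded *ZNF367* and *ZNF100*, and called corepressor genes. Members named beside these for their known function, or as copies, were chosen after their values were seen. Alternatives were another scaling, another filter, DESeq2, a replicate block, the GC offset, other CPM floors and leaving out each library.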

Additional observations from a re-analysis of the deposited data

Results flagged for a closer look

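The effect of a drug differed between the lines, by the test of the difference itself (K1 minus TPC1, edgeR's quasi-likelihood test, log2 scale), for the members counted in the results, and 11 of these differences are given here: all 5 past 1.5-fold under GSK2830371, and for nutlin the 3 largest each way. Under GSK2830371 they were *ZNF703* at 0.74, *ZNF507* at -0.77, *ZNF322* at -0.73, *ZNF267* at -0.61 and *ZNF770* at -0.60. The 4 negative differences belong to transcripts of 35.9% to 40% GC content, and with the GC offset they were -0.43, -0.47, -0.26 and -0.19 in the same order, with *ZNF703* at 0.59. Under nutlin the differences were -2.97 for *ZNF385A*, -1.71 for *ZNF79* and -1.71 for *ZNF219*, and 1.04 for *ZNF511*, 0.86 for *ZNF587B* and 0.68 for *ZNF146*. The groups hold 2 libraries each, too few for a test of single libraries standing apart.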

How the results depend on the processing

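No named member changed direction: of 1304 values of 76 named results under other settings 0 reversed. All 76 were named for an adjusted p under 0.05 in the main fit, so reversals were unlikely from the start. That level, whatever the fold change, was lost by 5 values with the GC offset. Another scaling, another filter, DESeq2 or the replicate block alone lost it for 18. Most losses came on leaving out a library, which leaves 1 in a group. With the GC offset, alone and with the replicate block, the members lowered numbered 2 in the K1 combination, 0 in K1 GSK2830371, 3 in the TPC1 combination against nutlin and 0 in the line difference of GSK2830371, whose raised count was 2 with the block. Library totals as scaling gave 8 raised, 2 lowered and a median of 0.08 in the K1 combination, 14 higher in K1 in the line difference of the combination and 7 lower in that of GSK2830371. Other floors change which genes count and how long the list is. The counts for these floors were not set against the length of each list or against all genes. They therefore do not show whether the share of genes called changed. With a mean of 5 CPM, 1 CPM and 10 CPM in each library in turn, TPC1 nutlin raised 50, 59 and 19 and lowered 23, 33 and 5, and the TPC1 combination raised 63, 80 and 24 and lowered 28, 39 and 8. Against nutlin the TPC1 combination raised 11, 16 and 2, and with 10 CPM lowered 3 with a median of 0.04. The K1 combination raised 10, 18 and 3 and lowered 14, 21 and 0 (median 0.02 with 10 CPM), and with 1 CPM raised 1 against nutlin. K1 nutlin lowered 10, 15 and 0 and with 10 CPM raised 3. K1 GSK2830371 lowered 8 and 9 with the first 2 floors, with medians of -0.04, -0.06 and 0.05 over the 3. In the line difference of the combination 13 and 16 were higher and 56, 65 and 22 lower in K1, in that of nutlin 8 and 8 higher and 39 and 43 lower, and in that of GSK2830371 7 lower with 1 CPM. Leaving out a library gave 5 to 8 raised, 2 to 4 lowered and medians of 0.02 to 0.05 in the K1 combination, 1 to 11 lowered and medians of -0.03 to 0.00 in K1 GSK2830371, 14 to 23 lowered in the TPC1 combination, 3 to 6 lowered against nutlin, 1 to 2 higher and 0 to 14 lower in the line difference of GSK2830371 and 3 to 5 higher in that of nutlin. At any size the GC offset gave 36 raised members in K1 nutlin (19 without it), 55 raised and 19 lowered in the TPC1 combination against nutlin (36 and 12), and 8 raised and 10 lowered in TPC1 GSK2830371 (1 and 2). The cause of these shifts was not tested, and the share of all genes called with the offset was not counted. Libraries of the same number shared deviations in TPC1 (r of 0.39 to 0.57 over 6 pairs of treatments, 12793 genes) and not in K1 (-0.27 to 0.27), and no label says that a number marks a batch. With the replicate block the counts past 1.5-fold were 32 raised and 11 lowered in TPC1 nutlin, 40 and 15 in the TPC1 combination and 0 and 3 in K1 GSK2830371. At any size the block moved TPC1 GSK2830371 from 1 raised and 2 lowered to 18 and 11. It moved the TPC1 combination against nutlin from 36 and 12 to 57 and 24. The share of all genes called with the block was not counted. With 2 libraries per group, small changes of members at 5 to 10 CPM are limited by the spread between libraries.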
